A study of Mus musculus with 14 samples.

Results

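The comparison described here is a 24 h induction of Ikaros activity in mouse pre-B cells cultured without interleukin-7 (IL-7). BH1-Bcl2-Ik1ER cells are a mouse pre-B cell line that carries 1 retrovirus for Bcl2, which protects cells from apoptosis, and another for Ik1ER, in which Ikaros is joined to the estrogen receptor. All 14 arrays of the study, in 7 groups of 2, were made from this line, and cells carrying both retroviruses had been purified by flow cytometry. The comparison rests on 4 of those arrays, chosen by their titles. They are the 2 arrays of cells kept for 24 h without IL-7 and with 100 nM 4-hydroxytamoxifen (4OHT), which activates the fusion protein, and the 2 arrays of cells kept for 24 h without IL-7 and without 4OHT. Each pair holds 1 array from each of 2 independent experiments, and each difference was taken within an experiment. The 4 arrays of cells kept for 24 h with IL-7, with or without 4OHT, serve below as the parallel comparison. IL-7 came as 8% conditioned medium of J558L cells that make it, and its withdrawal was culture without that medium. Effects of IL-7 and of anything else in that medium therefore cannot be told apart. All 19938 genes with a probe set named by 1 gene symbol were tested, each through its brightest probe set.

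Ikaros, the product of Ikzf1, is a lymphoid transcription factor of the zinc finger class that both represses and activates genes, in part through histone deacetylase and chromatin remodelling complexes. In the bone marrow, large pre-B cells proliferate under IL-7, which acts through JAK kinases and STAT5, while signals of the pre-B cell receptor favour exit from the cell cycle, loss of the surrogate light chain and rearrangement of the kappa light chain locus. FoxO transcription factors, which IL-7 signals hold back, and Ikaros are known to take part in that transition, and Myc drives growth and ribosome production in the cycling cells. The BH1 line is known to lack normal Ikaros, and cells without the fusion were not measured. Effects of 4OHT itself and of Ikaros activity therefore cannot be told apart.

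Levels are log2 values after RMA, a method that corrects background, normalizes across arrays and summarises probes, and a difference of 1 on this scale is a 2-fold change. Values of a pair are given in the order experiment 1, experiment 2. Differences are means over both experiments (n = 2 arrays per group) ± limma's moderated standard error (SE). That SE rests on the spread within groups, pooled over all groups of the study, after a shift shared by the arrays of an experiment was removed. It does not measure how closely the 2 experiments agreed, which the paired values show. Array medians lay between 7.23 and 7.43 and within a group the correlation of arrays was 0.9968 to 0.9982. B lineage markers averaged 11.4 to 11.5 in the 4 arrays, although the recombinase genes Rag1 and Rag2 lay below the median of all values, 7.33. Of the T cell, myeloid, erythroid and megakaryocyte, and stromal cell markers, none of the 41 measured passed the test (3 had an unadjusted p under 0.05 in limma), and 34 lay below that median. Ikzf1 read 13.26 and 13.28 without 4OHT and 13.31 and 13.38 with it (difference 0.07 ± 0.06, adjusted p = 0.527), a probe set that may read the cells' own transcript, the fusion or both. The induction acts on the protein, so this level does not check the labels. Bcl2 read 8.28 and 8.38 without 4OHT and 8.41 and 8.56 with it, and did not pass either (adjusted p = 0.127).

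With 4OHT, 4470 of the 19938 genes (22.4%) differed at an adjusted p under 0.05 in limma's moderated test with Benjamini-Hochberg adjustment. Of these, 2184 were higher (11%) and 2286 lower (11.5%), and 163 were at least 2-fold higher and 299 at least 2-fold lower. The median difference of all genes was 0.01 and the median SE 0.077. These p-values rest on the spread within groups, pooled over the 7 groups, after a shift shared by all arrays of an experiment was removed. They cover 2 experiments in 1 line. The replicate block, a term for the experiment number, moved these counts: without it 3045 genes passed (15.3%), 1416 of them higher (7.1%) and 1629 lower (8.17%). Omitting any of the 4 arrays leaves a group with a single array, and fewer genes passed whichever array was omitted. Lower counts with an array left out, here and below, therefore do not by themselves show that a result rested on that array. Centring each array on its median gave 1654 higher and 2601 lower genes, a share of higher calls of 38.9% against 48.9%.

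Across all genes the differences of experiment 1 and experiment 2 correlated at r = 0.848, a description of 2 pairs of arrays that share no array. The experiments differed in size by direction. Of the 2184 genes called higher, 1666 rose more in experiment 1 (median 0.43 against 0.33 in experiment 2), and of the 2286 called lower only 721 fell more in experiment 1 (median -0.42 against -0.49). The medians of all genes were 0.01 and 0.02, and the source of this asymmetry was not tested.

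**Figure D1:**
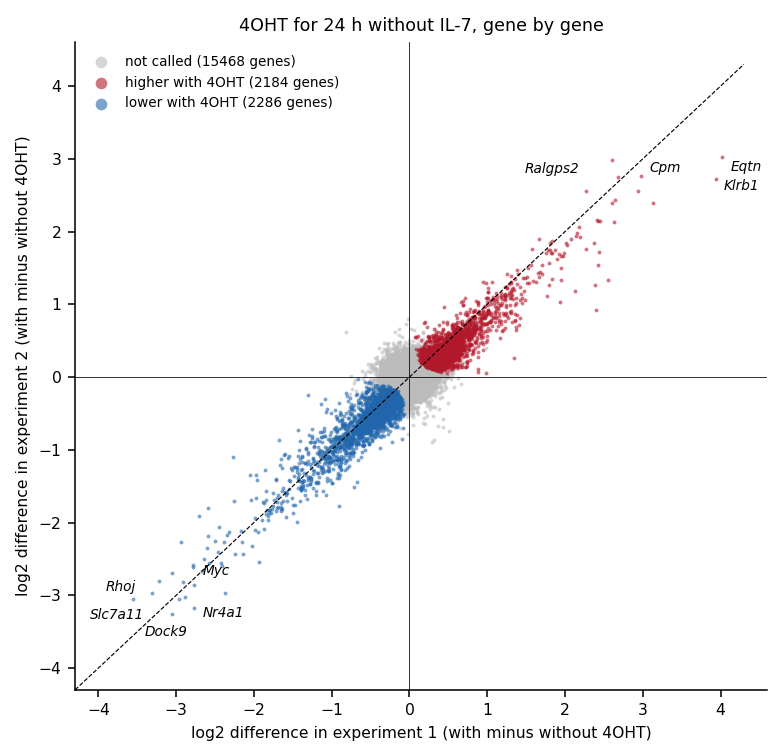
Difference with minus without 4OHT at 24 h without IL-7 in experiment 1 (x axis) and experiment 2 (y axis), in log2 units, 1 point per gene; red genes were called higher, blue genes lower, grey genes were not called, and the dashed line marks equal differences. Points lie along the line (r = 0.848 over all genes), with most large rises below it, that is, larger in experiment 1.

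The largest rises were those of Eqtn, Klrb1 and Cpm, and S1pr1 and Coro1a, genes of lymphocyte migration and of actin, were also among the 15 named. These 15 were chosen among genes that passed, so that passing in the main test is no further result. Other fits reuse the same arrays, so that passing in them is no independent support. All 15 largest rises, 4.2-fold to 11.5-fold, passed with an adjusted p of 4.43e-06 or less, and they also passed without the replicate block and with each of the 4 arrays left out in turn. Eqtn, which encodes a protein of the sperm acrosome, stood at 4.77 and 4.86 without 4OHT and at 8.79 and 7.89 with it (3.53 ± 0.27). Klrb1, a C-type lectin receptor of the NKR-P1 family best known from natural killer cells, read 7.28 and 7.16 without and 11.22 and 9.88 with 4OHT (3.33 ± 0.31). In both genes the experiment 1 array was the higher of the 4OHT arrays, and both 4OHT arrays lay far above the others. The related Klrb1c rose too, from 5.46 and 5.37 to 7.84 and 6.64 (1.82 ± 0.22). Probes of such close relatives may share signal, which was not tested. Of the 11 natural killer cell markers measured, Klrb1c and Klrd1 (0.26 ± 0.07) were higher and none lower (1 by limma's unadjusted p under 0.05), and 10 lay below the median of all values in both groups. Klrd1 did not pass with centred arrays, nor when either experiment 1 array or the experiment 2 array with 4OHT was left out. Ncr1, Klrk1, Gzma and Eomes, which define that cell type, stood at 5.02 to 5.24, 4.88 to 5.12, 4.82 to 4.97 and 5.81 to 5.88 over the 4 arrays, near the bottom of the scale. The mean of the 11 markers was 5.53 and 5.46 without 4OHT and 5.70 and 5.69 with it.

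Cpm, a membrane carboxypeptidase, rose from 9.55 and 9.42 to 12.54 and 12.19 (2.87 ± 0.16). S1pr1, the sphingosine 1-phosphate receptor that guides lymphocytes into the blood, rose from 6.99 and 7.04 to 9.64 and 9.48 (2.54 ± 0.13), and Coro1a, an actin-binding protein of leukocytes, from 7.36 and 7.43 to 9.99 and 9.57 (2.38 ± 0.13). The arrays of the groups did not overlap for any of these genes, which also held for 4422 of the 4470 genes called and for 50.2% of all genes. Fcrla, an Fc receptor-like protein of B cells, stood at 7.38 and 7.38 without 4OHT and at 9.79 and 9.54 with it (2.28 ± 0.10). Ralgps2, an exchange factor for Ral GTPases, went from 7.55 and 7.38 to 10.22 and 10.13 (2.71 ± 0.08). Nuggc, a nuclear GTPase described in germinal centres, went from 6.45 and 6.51 to 8.88 and 8.66 (2.29 ± 0.09). The arrays of a group lay close together for these 3 genes. Sp100, a component of nuclear bodies, differed between the experiments at the start (6.38 and 7.27) and rose by a like amount in each, to 8.98 and 9.67 (2.50 ± 0.12). The other rises were Ifi209, of the interferon-inducible PYHIN family (2.76 ± 0.17), Tmem71 (2.30 ± 0.15), Tubd1, which encodes delta tubulin (2.12 ± 0.11), Serinc5 (2.11 ± 0.16), Tmc5 (2.08 ± 0.17) and Ero1b, an oxidase of the endoplasmic reticulum (2.07 ± 0.12). In 14 of the 15 the rise was larger in experiment 1.

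The largest falls were those of Slc7a11, Dock9 and Rhoj, and Nr4a1 and Myc were also among the 15 named, likewise chosen among genes that passed. All 15 falls, 6.1-fold to 9.9-fold, passed with an adjusted p of 2.34e-06 or less, and likewise in those alternatives. Slc7a11, the cystine and glutamate exchanger, fell from 11.02 and 9.57 to 7.46 and 6.52 (-3.30 ± 0.20). Its level was lower in experiment 2 in both groups, and the test without the replicate block gave an adjusted p of 0.0124. Dock9, which activates Cdc42, fell from 12.77 and 12.82 to 9.71 and 9.57 (-3.16 ± 0.10), and the small GTPase Rhoj from 11.46 and 11.30 to 8.15 and 8.33 (-3.14 ± 0.09). For Dock9 and Rhoj the arrays of a group lay close together and far from those of the other group. Nr4a1, a nuclear receptor induced within minutes by antigen receptor signals, fell from 12.01 and 11.92 to 9.05 and 8.87 (-3.00 ± 0.11). Nlrp3, the inflammasome sensor, fell from 8.73 and 8.91 to 5.96 and 5.73 (-2.98 ± 0.11). Ptger4, a prostaglandin E2 receptor, fell from 10.33 and 10.37 to 7.45 and 7.34 (-2.96 ± 0.10). Nlrp3 ended below the median of all values, and Ptger4 near it. Nrp2, a receptor for semaphorins, fell from 10.70 and 10.76 to 7.92 and 7.90 (-2.82 ± 0.08), and Tnfsf10, the death ligand TRAIL, from 11.23 and 11.19 to 8.56 and 8.53 (-2.66 ± 0.10). Il33, an alarmin cytokine, went from 8.89 and 8.50 to 6.11 and 5.92 (-2.68 ± 0.23). The remaining falls were Igfbp7 (-3.01 ± 0.11), the T-box factor Tbx19 (-2.87 ± 0.09), Myom1, a protein of the muscle sarcomere (-2.87 ± 0.08), Gbp11, an interferon-inducible GTPase (-2.67 ± 0.14), the cytochrome P450 Cyp2j6 (-2.60 ± 0.14), and Myc, which is taken up below.

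**Figure D2:**
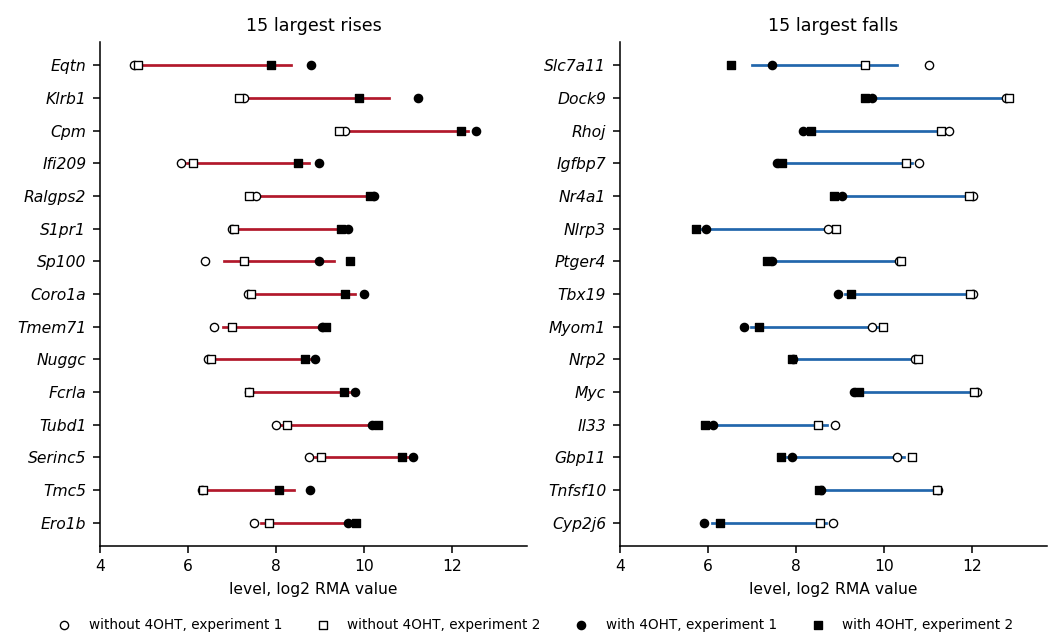
Levels (log2 RMA values, x axis) of the 15 largest rises and the 15 largest falls in the 4 arrays at 24 h without IL-7; open symbols are arrays without 4OHT, filled symbols with 4OHT, circles experiment 1, squares experiment 2, and lines join the group means. Open and filled symbols are separate for every gene shown, as for 4422 of the 4470 genes called, from which these were chosen. The arrays of a group lie furthest apart in Slc7a11 without 4OHT and in Klrb1 with it.

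Ikaros binds DNA through a core written TGGGAA. Promoter windows of 300 bases, from 250 bases before to 50 after a RefSeq start site (GRCm38.p6), were searched for these letters on both strands. The core was present in 24.1% of 19116 windows of all tested genes. The share was 20.4% of 2290 windows of genes called higher and 26.3% of 2353 windows of genes called lower, and 22.8% and 29.4% for those that changed at least 2-fold. The core overlaps GGAA, the core of ETS factors, which was in 95.6% of all windows and in 95.0% to 96.2% of those of the 4 sets. Of the 15 largest rises 10 had a window and 1 of them the core. Of the 15 largest falls 13 had a window and 7 the core. These count genes with the core in any of their windows, so they do not compare with the shares of windows above. The windows of 5 of those 7 genes, the largest falls that hold it, are shown with the core in capitals (TTCCCA where it lies on the other strand). A match is a description of the letters, and binding was not measured.
Slc7a11 (chr3:50443564-50443863, GRCm38.p6, minus strand): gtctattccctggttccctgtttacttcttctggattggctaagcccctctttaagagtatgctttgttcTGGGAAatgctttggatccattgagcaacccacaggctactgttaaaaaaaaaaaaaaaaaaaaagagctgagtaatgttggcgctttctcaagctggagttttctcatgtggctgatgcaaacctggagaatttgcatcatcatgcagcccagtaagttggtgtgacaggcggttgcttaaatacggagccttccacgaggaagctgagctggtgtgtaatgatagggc
Dock9 (chr14:121698368-121698667, GRCm38.p6, minus strand): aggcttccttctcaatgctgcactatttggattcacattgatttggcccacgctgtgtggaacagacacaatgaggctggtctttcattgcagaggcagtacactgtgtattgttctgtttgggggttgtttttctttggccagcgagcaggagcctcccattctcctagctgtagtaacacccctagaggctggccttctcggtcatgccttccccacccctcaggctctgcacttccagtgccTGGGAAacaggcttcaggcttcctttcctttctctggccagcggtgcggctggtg
Rhoj (chr12:75308063-75308362, GRCm38.p6, plus strand): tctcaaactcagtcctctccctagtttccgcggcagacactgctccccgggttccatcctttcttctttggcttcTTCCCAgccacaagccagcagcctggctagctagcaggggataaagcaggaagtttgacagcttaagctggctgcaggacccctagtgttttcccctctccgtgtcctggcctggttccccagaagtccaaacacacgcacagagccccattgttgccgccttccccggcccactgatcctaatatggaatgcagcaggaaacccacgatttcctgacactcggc
Nlrp3 (chr11:59541319-59541618, GRCm38.p6, plus strand): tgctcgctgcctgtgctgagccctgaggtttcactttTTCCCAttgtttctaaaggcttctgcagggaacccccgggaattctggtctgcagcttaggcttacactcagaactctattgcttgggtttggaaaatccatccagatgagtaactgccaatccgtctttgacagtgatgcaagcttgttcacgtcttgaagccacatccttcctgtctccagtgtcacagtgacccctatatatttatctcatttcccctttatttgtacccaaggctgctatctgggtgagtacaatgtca
Tbx19 (chr1:165160724-165161023, GRCm38.p6, minus strand): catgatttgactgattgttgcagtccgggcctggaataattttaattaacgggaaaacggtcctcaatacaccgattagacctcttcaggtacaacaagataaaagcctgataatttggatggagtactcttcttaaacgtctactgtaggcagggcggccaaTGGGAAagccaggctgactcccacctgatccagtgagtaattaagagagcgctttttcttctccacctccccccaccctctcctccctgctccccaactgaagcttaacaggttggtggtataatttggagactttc
In Slc7a11 the core began 180 bases before the start site, in Rhoj 175 and in Nlrp3 213, in Tbx19 87 and in Dock9 5. Dock9 has 3 windows in the table, of which 1 holds the core, and both windows of Nlrp3 hold it.

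The chains of the pre-B cell receptor moved in opposite directions. The surrogate light chain genes fell: Vpreb1 from 11.18 and 11.25 to 9.79 and 9.97 (-1.34 ± 0.07) and Vpreb2 from 9.47 and 9.53 to 8.45 and 8.58 (-0.99 ± 0.08). Igll1, the lambda5 chain, fell less, from 13.90 and 13.91 to 13.43 and 13.54 (-0.42 ± 0.06). The signalling chains rose, Cd79a from 12.09 and 12.24 to 13.03 and 12.85 (0.77 ± 0.08) and Cd79b from 13.30 and 13.34 to 13.75 and 13.77 (0.44 ± 0.06). The heavy chain probe set Ighm read 7.31 and 7.38 and 7.39 and 7.50 and did not pass (adjusted p = 0.458). Of the 7 chains listed, 2 were thus higher and 3 lower. Counts of this and the following lists stand against 11% higher and 11.5% lower over all genes tested. Those shares include genes below the median of all values, which gave only 346 of the 4470 calls. Without such dim genes 2330 of 10698 were higher and 2368 lower, which is a larger share in each direction. Most lists held few dim members, so a count somewhat above 11% or 11.5% does not set a list apart.

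Of the 8 kappa variable segments with a probe set of their own, 5 were higher with 4OHT and none lower (none either at an unadjusted p under 0.05 in limma), with a median of 0.61; 3 of the 8 lay above the median of all values. Igkv10-96 rose from 6.03 and 6.46 to 8.64 and 9.45 (2.80 ± 0.18) and Igkv9-120 from 5.72 and 5.49 to 8.65 and 8.05 (2.75 ± 0.15). Igkv19-93 was already bright, at 12.03 and 12.08, and rose to 12.80 and 12.97 (0.83 ± 0.07). A dimmer probe set of Igkv19-93 rose by 1.83. Igkv4-55 (0.88 ± 0.16) and Igkv4-91 (0.40 ± 0.07) rose from levels under 6. Variable segments resemble each other, so that a probe set may read more than 1. A rise can come from transcripts of segments before or after rearrangement, and the array does not tell these apart. Rag1 read 5.81 and 5.77 and 5.90 and 5.96 and Rag2 4.61 and 4.50 and 4.49 and 4.55, without and with 4OHT, and neither passed (adjusted p = 0.153 and 0.895). Among the 15 V(D)J recombination genes measured 6 were higher and 2 lower. When either array of experiment 1 was left out 3 were higher, and 1 was lower when any of the 4 arrays was. The end-joining ligase Lig4 rose from 9.93 and 9.94 to 11.60 and 11.38 (1.56 ± 0.09), the polymerase Polm by 0.82 ± 0.09 and the Ku subunit Xrcc6 by 0.88 ± 0.08, while the other Ku subunit, Xrcc5, changed by -0.61 ± 0.07.

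Of 18 genes of pre-B cell receptor signalling measured, 10 were higher and 2 lower with 4OHT, with a median difference of 0.27 against 0.01 over all genes; without the replicate block 7 were higher. The rises held kinases of the pathway: Syk from 10.36 and 10.57 to 11.43 and 11.39 (0.95 ± 0.09), Prkcb from 9.67 and 9.60 to 10.94 and 10.73 (1.20 ± 0.09), Zap70 by 0.80 ± 0.08 and Btk by 0.55 ± 0.06. The adaptor Blnk rose by 0.44 ± 0.09. Both falls were exchange factors, Vav3 from 11.14 and 11.18 to 9.82 and 9.98 (-1.26 ± 0.07) and Rasgrp3 from 11.81 and 11.72 to 10.79 and 10.74 (-1.0 ± 0.10). Inhibitory receptors and phosphatases, which dampen such signals, had 8 of 19 members higher and 1 lower. Siglecg rose from 9.72 and 10.02 to 11.53 and 11.73 (1.76 ± 0.11) and the inhibitory Fc receptor Fcgr2b from 9.64 and 9.54 to 11.40 and 11.24 (1.73 ± 0.08). The arrays of these 2 receptors did not overlap between the groups, as for nearly all genes called. Cd22 and the adaptor Dok3 rose by 0.64 ± 0.07 and 0.66 ± 0.06, and the phosphatase Ptpn6 fell (-0.49 ± 0.08).

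Markers of successive B cell stages split, and in RNA of a whole culture a change in the mix of cells cannot be told apart from a change in each cell. Of 15 markers of pro-B and large pre-B cells 6 were lower and 3 higher, and of 22 markers of small pre-B and later B cells 8 were higher and 1 lower (none lower without the replicate block, without the experiment 1 array with 4OHT or without the experiment 2 array lacking it). Spn (CD43) fell from 9.79 and 10.01 to 8.68 and 8.71 (-1.21 ± 0.08) and the transcription factor Lef1 from 12.39 and 12.40 to 11.30 and 11.23 (-1.13 ± 0.09). The BAFF receptor Tnfrsf13c rose from 9.36 and 9.36 to 11.03 and 11.26 (1.78 ± 0.13). The inhibitory receptor Btla rose from 8.26 and 8.48 to 9.93 and 9.86 (1.52 ± 0.17). In the other direction, the highest difference in the first list was 0.36 and the lowest in the second was -0.40. The 6 falls of the first list include Vpreb1 and Igll1, already counted among the receptor chains. The classic small pre-B markers Il2ra (CD25) and Cd2 did not pass: Il2ra, which passed only when the experiment 1 array with 4OHT was left out, read 5.36 and 5.43 and 5.37 and 5.73, and Cd2 6.04 and 6.02 and 6.07 and 6.15, all below the median of all values.

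Among 26 transcription factors of the B lineage 12 were higher and 6 lower. Spib, an ETS factor related to PU.1, rose from 10.47 and 10.72 to 12.66 and 12.65 (2.06 ± 0.08), and Pou2f2 (Oct-2) from 7.58 and 7.82 to 9.48 and 9.44 (1.76 ± 0.09). Foxo1 rose from 10.10 and 10.04 to 11.42 and 11.17 (1.22 ± 0.10) and Tcf3, which encodes the E2A proteins, from 10.51 and 10.52 to 11.53 and 11.39 (0.95 ± 0.06). All 4 had both 4OHT arrays above both others, and nearly all genes called were separate in this way. Smaller rises passed in Spi1 (PU.1, 0.71 ± 0.06), Pax5 (0.66 ± 0.09), Bach2 (0.62 ± 0.11) and Ebf1 (0.33 ± 0.08), the last 3 of which keep or set B cell identity. Ebf1 did not pass when either experiment 1 array or the experiment 2 array without 4OHT was left out. Besides Lef1, Bcl11a (-0.63 ± 0.07), Bcl6 (-0.43 ± 0.07) and Runx1 (-0.42 ± 0.06) fell. Of the 5 measured members of the Ikaros family only Ikzf2 (Helios) passed (2 were lower with centred arrays), falling from 9.24 and 9.33 to 8.28 and 8.45 (-0.91 ± 0.11). Among 18 chromatin partners of Ikaros 4 were higher and 3 lower. Ctbp2, a corepressor, fell from 10.16 and 10.09 to 9.0 and 9.04 (-1.11 ± 0.09), and without the replicate block it was the 1 member that fell. Chd3 (0.58 ± 0.08), Smarca4 (0.59 ± 0.08) and Mbd2 (0.59 ± 0.07) rose, while Chd4, the main remodelling enzyme of the NuRD complex, read 11.89 and 12.02 and 11.93 and 11.91 (adjusted p = 0.826).

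The list of IL-7 and STAT5 responses did not move as one. Of 15 measured, 5 were higher and 4 lower; without the replicate block 3 were higher. Leaving out the experiment 1 array without 4OHT or the experiment 2 array with it left 2 higher, and leaving out the experiment 2 array without 4OHT left 3. Myc fell from 12.10 and 12.05 to 9.31 and 9.43, a difference of -2.70 ± 0.10 or 6.5-fold (adjusted p = 1.38e-09). Ccnd2, the D-type cyclin that IL-7 sustains, fell from 10.29 and 10.68 to 8.40 and 8.96 (-1.80 ± 0.09), and Cish, a STAT5 target and feedback inhibitor, from 8.22 and 8.18 to 7.55 and 7.51 (-0.67 ± 0.08). The arrays did not overlap for any of the 3, as for nearly all genes called. The survival gene Bcl2l1 (BCL-XL) rose from 8.65 and 8.76 to 10.44 and 10.02 (1.53 ± 0.12) and the kinase Pim1 by 0.74 ± 0.10. Il7r itself read 13.28 and 13.33 and 13.24 and 13.25 (adjusted p = 0.675). Of 8 receptor and JAK-STAT components 2 were higher (1 without the replicate block or with any of the 4 arrays left out) and 2 lower, and Stat5a fell from 11.17 and 11.06 to 10.39 and 10.24 (-0.80 ± 0.07).

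Of 22 FoxO targets measured, 14 were higher and 2 lower, with a median of 0.47; without the replicate block 12 were higher. Besides S1pr1 they included Sesn1 from 9.92 and 9.90 to 10.90 and 10.63 (0.85 ± 0.11), Gadd45a (0.84 ± 0.10), Sesn3 (0.74 ± 0.08) and the kinase inhibitor Cdkn1b (p27) from 11.22 and 11.24 to 12.13 and 11.94 (0.81 ± 0.08). The BH3-only death gene Bcl2l11 (BIM) rose from 9.41 and 9.48 to 10.24 and 10.11 (0.73 ± 0.07), at the same time as BCL-XL. Gabarapl1 (-0.70 ± 0.10) and Bcl6 were the members that fell, and Rag1, Rag2 and Il7r were among the 6 that did not pass. The same 4OHT treatment with IL-7 gave 13 higher and none lower, also with a median of 0.47. The rise of this list was thus not particular to culture without IL-7.

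**Figure D3:**
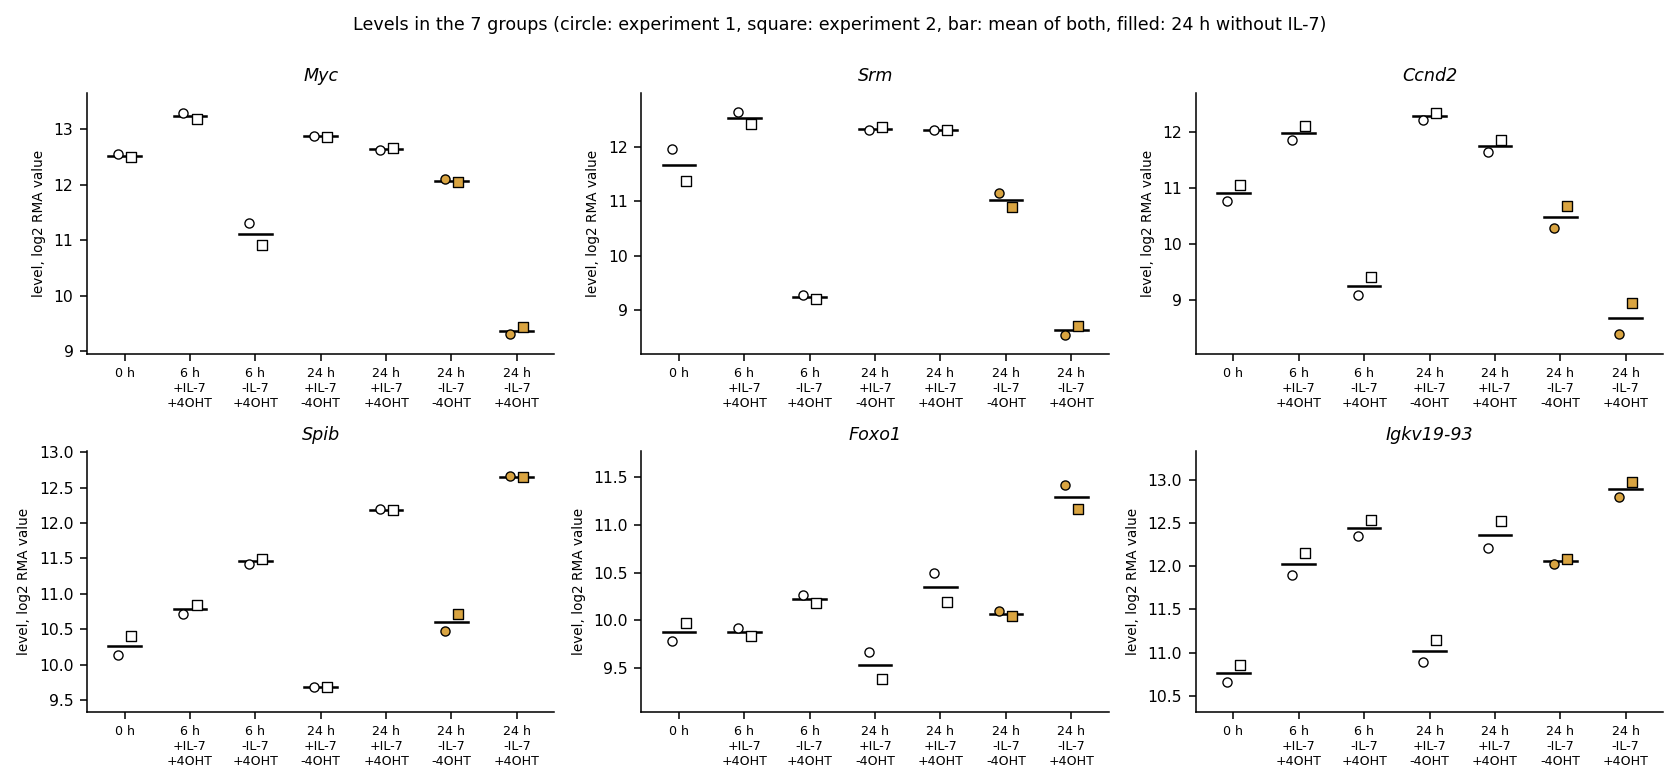
Levels (log2 RMA values, y axis) of 6 genes in all 7 groups of the study; circles are experiment 1, squares experiment 2, bars the mean of both, and filled symbols the groups at 24 h without IL-7. Myc, Srm and Ccnd2 stand lowest with 4OHT and without IL-7 at 24 h, where Myc reads 9.31 and 9.43, and Spib, Foxo1 and Igkv19-93 stand highest there.

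Genes of the cell cycle changed unevenly. Of 37 DNA replication genes 24 were lower and none higher, with a median of -0.46 (28 lower and none higher at an unadjusted p under 0.05 in limma); without the replicate block 18 were lower. The polymerase subunit Pole2 fell from 9.62 and 9.70 to 8.23 and 8.18 (-1.46 ± 0.09), the clamp loader subunit Rfc5 from 11.85 and 11.81 to 10.77 and 10.70 (-1.10 ± 0.10), and the helicase subunit Mcm6 from 10.05 and 9.94 to 9.30 and 9.05 (-0.82 ± 0.11). Both 4OHT arrays lay below both others for each, a separation that nearly all genes called showed. Pcna, the sliding clamp, fell from 12.42 and 12.29 to 11.92 and 11.78 (-0.50 ± 0.07). Among 19 cyclins, cyclin-dependent kinases (CDKs) and E2F factors, 8 were lower and 3 higher. Besides Ccnd2, Ccnd1 fell from 9.78 and 9.74 to 8.36 and 8.32 (-1.42 ± 0.07), the G1 kinase Cdk6 by -0.59 ± 0.07 and E2f3 by -0.63 ± 0.10. E2f2 rose from 8.39 and 8.17 to 10.40 and 10.01 (1.92 ± 0.09) and the CDK-activating phosphatase Cdc25b from 8.83 and 8.88 to 10.32 and 9.94 (1.27 ± 0.11). Of 9 kinase inhibitors and pocket proteins 4 were higher and 1 lower (3 and none without the replicate block, and none lower when any array but the experiment 1 array without 4OHT was left out), with Rb1 (0.54 ± 0.07) and Cdkn2d (0.52 ± 0.07) among the rises. Genes of G2 and mitosis showed no such fall: 10 of 32 were higher and 2 lower, with a median of 0.13. That count rested on the replicate block, with 1 higher and none lower without it. The count of higher genes was also smaller without the experiment 1 array with 4OHT. Top2a read 10.59 and 10.32 and 10.70 and 10.38, Plk1 10.30 and 9.98 and 10.42 and 10.07, without and with 4OHT, and Ccna2 11.40 and 10.95 and 11.36 and 10.91; none of the 3 passed.

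The most uniform list was that of ribosome biogenesis and MYC targets. Of 29 measured, 26 were lower and none higher, with a median of -0.84 (27 lower and none higher at an unadjusted p under 0.05 in limma); without the replicate block 25 were lower. Srm, the spermidine synthase, fell from 11.14 and 10.90 to 8.55 and 8.71 (-2.39 ± 0.13). Polr1b, a subunit of RNA polymerase I, fell from 10.09 and 10.06 to 8.38 and 8.34 (-1.71 ± 0.08), and the nucleolar protein Gnl3 from 10.06 and 9.96 to 8.93 and 8.64 (-1.23 ± 0.07). Odc1, ornithine decarboxylase, which makes the precursor of spermidine, fell from 9.49 and 9.44 to 8.83 and 8.00 (-1.05 ± 0.14). No 4OHT array reached an array without 4OHT in these 4 genes, and nearly all genes called were likewise separate. Cad, Wdr12 and Ncl did not pass, at -0.22 ± 0.09, -0.13 ± 0.07 and -0.11 ± 0.07. RMA scales the arrays to each other, so a fall of total RNA per cell would not be seen.

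Lists of metabolism and protein quality control were each read on their own. Of 18 glycolysis genes 10 were lower and 1 higher, with Pgk1 going from 11.63 and 11.45 to 10.74 and 10.32 (-1.01 ± 0.10), Aldoc by -0.94 ± 0.09 and Tpi1 by -0.65 ± 0.09, and the lactate and pyruvate transporter Slc16a1 rising from 11.11 and 10.98 to 12.14 and 11.74 (0.90 ± 0.08). The glucose transporter Slc2a1 read 10.12 and 10.19 and 10.13 and 9.96 and did not pass. Of 21 genes of the ATF4 and amino acid response 9 were lower and none higher (10 and 3 by limma's unadjusted p under 0.05): besides Slc7a11, the leucine transporter Slc7a5 fell from 9.85 and 10.19 to 8.81 and 8.89 (-1.17 ± 0.15), Phgdh, the entry enzyme of serine synthesis, by -1.15 ± 0.16, and asparagine synthetase Asns by -1.11 ± 0.18. Atf4 itself (0.10 ± 0.07) and Trib3 (0.02 ± 0.08) did not pass. Of 15 fatty acid synthesis genes 5 were lower and none higher (6 and none by that unadjusted p), with the desaturase Fads2 falling from 9.95 and 10.19 to 8.52 and 8.85 (-1.38 ± 0.09), while Fasn, the synthase, did not pass (-0.17 ± 0.07). Near the 11.5% of all genes called lower, 3 of 20 cholesterol synthesis genes were lower, and none was higher (3 and 2 by that unadjusted p). Of these 1 was lower without the replicate block or the experiment 1 array without 4OHT, and none without the experiment 2 array with 4OHT. Of 13 heat shock proteins 7 were lower and 2 higher: Hsph1 fell from 10.57 and 10.51 to 9.21 and 9.0 (-1.44 ± 0.09) and the mitochondrial chaperonin Hspd1 from 11.71 and 11.63 to 10.77 and 10.50 (-1.03 ± 0.08), while Hsp90b1 (1 of the 2 rises, and the 1 left without the replicate block) of the endoplasmic reticulum rose by 0.50 ± 0.09. Of 32 respiratory complex I subunits 11 were lower and 1 higher (median -0.16), but 3 were lower and none higher without the replicate block, and 3 to 7 were lower with each of the 4 arrays left out in turn. Of 23 autophagy and lysosome genes 5 were higher (3 without either array of experiment 1) and 7 lower: the regulators Tfeb (1.05 ± 0.07) and Tfe3 (-0.42 ± 0.07) went opposite ways.

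Of 30 integrin and adhesion genes 11 were lower and 4 higher. The fibronectin receptor chain Itga5 fell from 10.12 and 10.04 to 8.58 and 8.60 (-1.48 ± 0.09), Itga6, a laminin receptor chain, by -1.07 ± 0.11, and Itgb1, which pairs with both, from 11.02 and 11.10 to 10.36 and 10.21 (-0.77 ± 0.08). Ctnnd1 (p120 catenin) fell from 11.07 and 11.07 to 9.47 and 9.49 (-1.59 ± 0.07), the tetraspanin Cd9 by -1.25 ± 0.09 and the actin crosslinker Actn1 by -1.12 ± 0.10. Itga4, which binds VCAM-1, rose from 10.63 and 10.87 to 11.35 and 11.45 (0.65 ± 0.09), and the leukocyte chain Itgb2 by 0.87 ± 0.09 and the kinase Ptk2b by 0.89 ± 0.08. Of 14 chemokine and sphingosine 1-phosphate receptors 3 were higher and 3 lower, with S1pr4 (1.16 ± 0.10) beside S1pr1 among the rises and Ccr2 (-1.33 ± 0.12) among the falls. Ccr2 was the 1 fall left when the experiment 1 array with 4OHT or the experiment 2 array without it was omitted. Cxcr4, which holds early B cells in the marrow, read 11.83 and 12.03 and 12.01 and 12.03 (adjusted p = 0.521). Of 10 MHC class II genes 3 were higher, namely both H2-O chains, H2-Oa (0.83 ± 0.09) and H2-Ob (0.95 ± 0.14), and the factor Rfx5 (0.35 ± 0.08), which did not pass without the experiment 2 array with 4OHT. The classical chains H2-Aa (5.47 to 5.67) and H2-Ab1 (5.80 to 5.89), the invariant chain Cd74 (6.07 to 6.55) and the master regulator Ciita (6.71 to 6.79) lay below the median of all values in all 4 arrays and did not pass. Of 12 MHC class I and antigen processing genes 2 were higher and 4 lower (1 and 2 without the replicate block, and none higher without the experiment 2 array with 4OHT), and B2m read 13.61 and 13.60 and 13.61 and 13.60.

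Signalling lists were mixed. Of 17 MAPK and RAS feedback genes 7 were lower and 2 higher: Spred2 fell from 10.07 and 10.07 to 7.75 and 7.94 (-2.23 ± 0.14) and the ERK phosphatase Dusp6 from 10.36 and 10.32 to 8.56 and 8.50 (-1.81 ± 0.18), and Spry2 and Etv5, likewise induced by ERK, by -1.08 ± 0.07 and -0.87 ± 0.10. Rasgrp2 rose by 1.04 ± 0.08. Of 24 immediate early genes 6 were lower and 7 higher, with Nr4a2 (-0.91 ± 0.09) beside Nr4a1 among the falls and Zfp36 (1.04 ± 0.07) and Btg2 (0.65 ± 0.08) among the rises. Fos (-0.003 ± 0.14) did not pass. Of 31 interferon response genes 10 were lower and 3 higher (1 higher without the experiment 1 array lacking 4OHT and 6 without the one given it). The falls were guanylate-binding proteins for the larger part, Gbp8 from 10.78 and 10.54 to 8.31 and 8.13 (-2.44 ± 0.07), Gbp4 from 9.96 and 9.82 to 7.90 and 8.48 (-1.70 ± 0.20) and Gbp9 by -1.21 ± 0.19, with Oasl2 (-1.59 ± 0.18), whereas Irf1 rose from 8.50 and 9.0 to 9.87 and 9.68 (1.03 ± 0.14). Gbp genes are close relatives, whose probes may share signal. Rsad2 (5.62 to 6.27) and Iigp1 (5.10 to 5.92), which interferon induces strongly, stood low in all 4 arrays and did not pass.

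Of 18 NF-kappaB subunits and feedback genes 8 were higher and 1 lower, and 5 were higher when either array of experiment 1 was left out. The subunit Rel rose from 11.40 and 11.40 to 12.23 and 12.31 (0.87 ± 0.09) and the inhibitor Nfkbia from 10.76 and 10.81 to 11.58 and 11.43 (0.72 ± 0.08), while Tnfaip3 (A20) fell (-0.53 ± 0.09). Of 15 BCL2 family genes 7 were higher and 3 lower; without the replicate block 1 was lower. Leaving out either array without 4OHT or the experiment 1 array with it left 4 higher, and of the falls 1 was left without the experiment 2 array lacking 4OHT and none without the one given it. Of 19 p53 targets 7 were higher and 2 lower (1 lower without the experiment 1 array lacking 4OHT or the experiment 2 array with it), with Rrm2b (1.19 ± 0.10), a ribonucleotide reductase subunit, the largest rise. Of 18 genes of TGF-beta family signalling 6 were higher and 1 lower, 3 higher without the experiment 1 array with 4OHT and none lower without the replicate block. The inhibitory Smad7 rose from 7.91 and 7.87 to 9.75 and 9.74 (1.85 ± 0.07) and Tgfb1 by 0.63 ± 0.08. Of 17 Notch pathway genes 1 was higher and 2 lower (none and 1 without the replicate block or with any of the 4 arrays left out), and Hes1, a Notch target, fell from 10.01 and 9.79 to 8.29 and 8.37 (-1.57 ± 0.09) while Notch1 read 8.14 and 8.11 and 8.22 and 8.39. Of 16 circadian clock genes 4 were higher and 3 lower (1 lower without the replicate block or when any array but the experiment 1 array with 4OHT was left out), with Dbp (0.94 ± 0.08) higher and Nr1d1 (-1.09 ± 0.11) lower. Of 8 plasma cell markers Slamf7 was higher (0.66 ± 0.11) and 3 were lower, Prdm1 (-0.46 ± 0.09) among them. The counts of the Notch list lay near or below the shares of all genes, 11% higher and 11.5% lower.

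**Figure D4:**
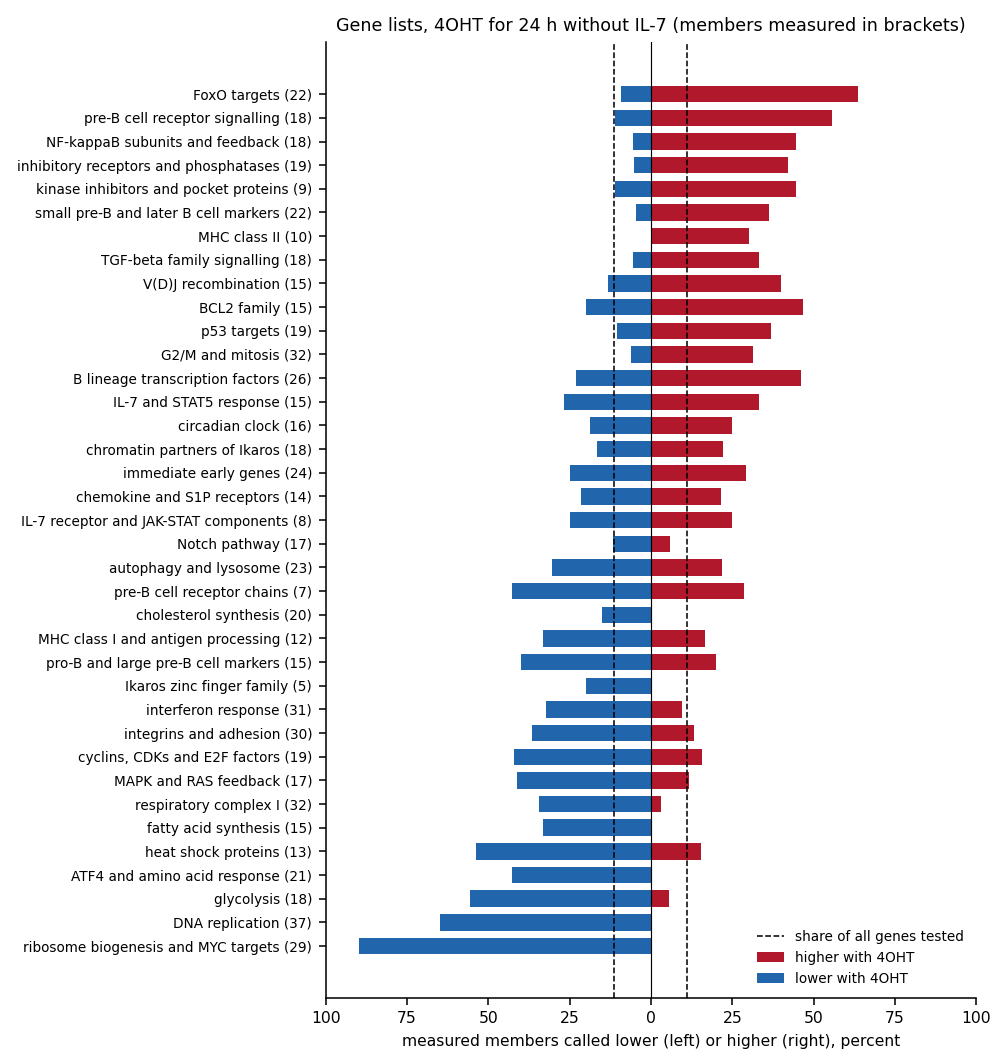
Share of the measured members of each gene list (number in brackets) called higher (red, right) or lower (blue, left) with 4OHT at 24 h without IL-7, in percent; dashed lines mark the shares of all genes tested, 11% higher and 11.5% lower. Ribosome biogenesis and MYC targets and DNA replication extend furthest to the left with no member higher. FoxO targets and pre-B cell receptor signalling extend furthest to the right. The shares of all genes include dim genes, which were seldom called.

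The same 4OHT treatment with IL-7 present served as the comparison, on 4 other arrays. There 3324 genes passed (16.7%), 1813 higher (9.09%) and 1511 lower (7.58%). Normalizing the deposited values by quantiles again gave 1430 higher and 2076 lower, a share of higher calls of 40.8% against 54.5%. The main count fell to 1826 without the replicate block, to 1479 without the experiment 1 array with 4OHT and to 1732 without the experiment 2 array without it. Of the genes called without IL-7, 2306 were called in the same direction with it, which is 51.6% of the list without and 69.4% of the list with IL-7, and 17 were called in opposite directions. All 15 largest rises passed with IL-7 too, and so did 14 of the 15 largest falls, all but Myc. The 2 comparisons share no array, though 1 fit gives the spread of each gene for both.

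The difference between the effects was tested directly, as the effect without IL-7 minus the effect with it. It passed for 449 genes (2.25%), 82 positive (0.411%) and 367 negative (1.84%), and for 399 of the 449 the effect without IL-7 was the larger in size. Of the 449, 343 were called lower without IL-7 and more so than with it, and 219 were not called with IL-7. The median difference of the effects over all genes was 0.03 and the median SE 0.109, so that fewer changes could pass than in either comparison. Without the replicate block 137 genes passed, 14 positive and 123 negative, and with each of the 8 arrays left out in turn 201 to 325 did. The lowest counts came without the experiment 2 arrays lacking 4OHT, at 201 for the array without IL-7 and 204 for the array with it, and the highest, 325 and 311, without the experiment 1 arrays lacking 4OHT. Leaving out the arrays given 4OHT left 271 and 297 (experiments 1 and 2, without IL-7) and 273 and 238 (with IL-7).

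Myc showed the largest negative difference of effects. With IL-7 it read 12.88 and 12.86 without 4OHT and 12.63 and 12.66 with it (-0.23 ± 0.10, adjusted p = 0.123), against the fall from 12.10 and 12.05 to 9.31 and 9.43 without IL-7, a difference of effects of -2.47 ± 0.14 (adjusted p = 3.93e-06). Srm read 12.30 and 12.36 and 12.31 and 12.30 with IL-7 (-0.03 ± 0.13), a difference of effects of -2.37 ± 0.19. Dctd, a deaminase that supplies the precursor of thymidylate, read 11.27 and 11.20 and 11.17 and 11.12 with IL-7, against 10.10 and 9.92 and 7.65 and 7.87 without it (difference of effects -2.16 ± 0.14). In these 3 genes the 4OHT arrays with IL-7 lay close to their controls. Nrp2 and Il33 followed (-1.66 ± 0.11 and -1.86 ± 0.33), both of which also fell with IL-7 (-1.16 ± 0.08 and -0.82 ± 0.23). The largest positive differences were those of Adgrg1, an adhesion receptor (1.24 ± 0.13), Nuggc (1.23 ± 0.12), the transferrin receptor Tfrc (1.14 ± 0.20), the kinetochore protein Cenpq (1.13 ± 0.11) and Cd248 (1.12 ± 0.11). Adgrg1 rose from 10.03 and 9.80 to 10.86 and 10.63 without IL-7 and fell from 11.17 and 10.75 to 10.73 and 10.37 with it. Cd248 likewise rose from 9.04 and 9.17 to 9.65 and 9.93 and fell from 9.85 and 9.94 to 9.47 and 9.45. Tfrc rose from 10.16 and 10.27 to 11.54 and 10.93 without IL-7 and stood at 12.05 and 11.81 and 11.88 and 11.72 with it, so that its 4OHT level without IL-7 stayed below both levels with IL-7. Of 53 named genes whose difference of effects passed, 22 passed in all 15 alternatives, Myc, Srm, Dctd, Nrp2, Adgrg1, Cd248 and Nuggc among them, and 29 did not pass without the replicate block, Cenpq and Il33 among them. Il33 passed in 10 of the 15, and Tfrc in all but 1, the fit without the experiment 1 array lacking both IL-7 and 4OHT.

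**Figure D5:**
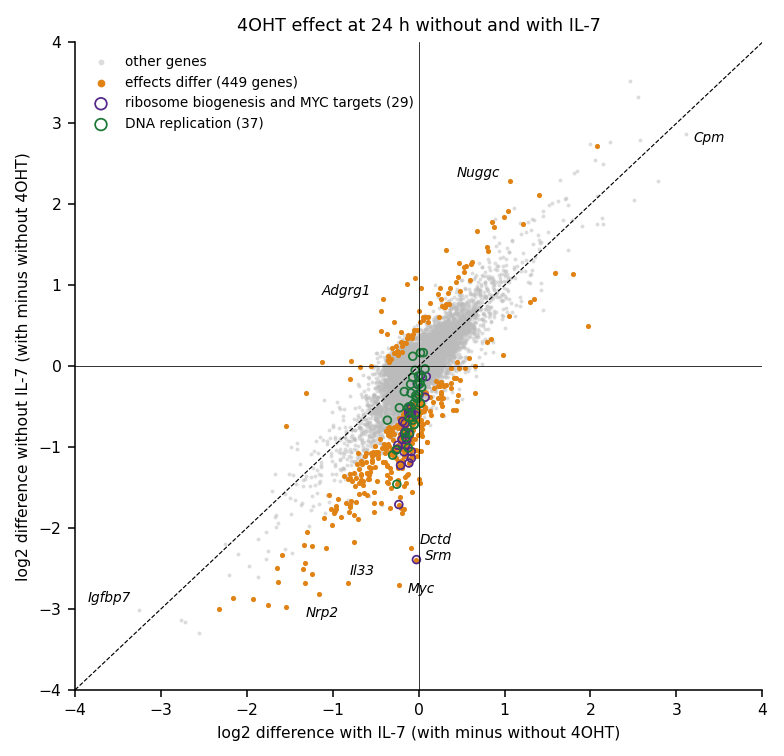
Difference with minus without 4OHT at 24 h with IL-7 (x axis) and without IL-7 (y axis), in log2 units, 1 point per gene; orange marks the 449 genes whose effects differ, rings mark 2 gene lists, and the dashed line marks equal effects. The rings of ribosome biogenesis and MYC targets lie below the x axis close to the vertical line, with medians of -0.84 without and -0.12 with IL-7.

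By list, the contrast was largest for ribosome biogenesis and MYC targets, where none of the 29 genes passed with IL-7 (median -0.12; 6 were lower and none higher at an unadjusted p under 0.05) and the difference of effects passed for 19, all negative (9 without the replicate block). For the DNA replication genes 1 of 37 was lower with IL-7 and the difference passed for 7, all negative, but for 1 without the replicate block and for 1 to 6 with each of the 8 arrays left out in turn. They included Pole2 (-1.21 ± 0.13), Rfc5 (-0.80 ± 0.14) and Mcm6 (-0.72 ± 0.16), of which Pole2 passed in all alternatives. Ccnd2 (-1.28 ± 0.12) and Ccnd1 (-0.93 ± 0.11) fell more without IL-7. E2f2 rose more without it (0.89 ± 0.13), as did Pou2f2 (0.54 ± 0.12) and Bcl2l11 (0.43 ± 0.10). Vpreb1 and Vpreb2 also fell more (-0.75 ± 0.10 and -0.48 ± 0.11). For Ccnd1 and Vpreb1 the difference passed in all 15 alternatives, for Ccnd2 and E2f2 in all but that without the replicate block, and for Pou2f2, Bcl2l11 and Vpreb2 in 7, 5 and 7 of the 15. For pre-B cell receptor signalling, 10 genes were higher and 2 lower with IL-7, and the difference of effects passed for Vav3 alone (-0.92 ± 0.10). For the others it missed the threshold, which does not show that they respond alike. Spib, for example, rose by 2.51 ± 0.08 with IL-7 and by 2.06 ± 0.08 without it (difference of effects -0.45 ± 0.11, adjusted p = 0.066). Some genes went the other way. Cxcr5, the receptor that guides B cells to follicles, rose from 6.49 and 6.26 to 8.65 and 8.04 with IL-7 and read 5.46 and 5.51 and 5.80 and 6.17 without it (adjusted p = 0.0502, just above the threshold, which 3 alternatives crossed). Its difference of effects was -1.47 ± 0.24. Igkv19-93 rose more with IL-7, from 10.89 and 11.15 to 12.21 and 12.52, and reached a lower level there than without IL-7 (difference of effects -0.51 ± 0.10). Over the mean of the 2 probe sets of Igkv19-93 that difference was 0.14 and did not pass (adjusted p = 0.606).

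Levels in the remaining groups place these changes. Myc averaged 12.52 at time 0, 13.24 after 6 h with 4OHT and IL-7, and 11.11 after 6 h of 4OHT and IL-7 withdrawal. Srm averaged 11.66, 12.53 and 9.23, and Ccnd2 10.91, 11.98 and 9.26, in the same order. All 3 genes thus stood lower at 6 h in the cells without IL-7. At 24 h without IL-7 they stood higher than that where no 4OHT was given, at 12.07, 11.02 and 10.48. No group at 6 h lacked 4OHT, so the 6 h levels do not separate its effect from that of IL-7 withdrawal. Dock9 averaged 12.58 at time 0 and 11.0 and 11.53 after 6 h with and without IL-7, between its levels at 24 h. Spib averaged 10.27, 10.78 and 11.46, and 12.66 at 24 h with 4OHT but no IL-7, the highest of its 7 group means.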

How the data were processed

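RNA was measured on Affymetrix mouse gene arrays, 14 in all. Per the labels' protocols, 150 ng of total RNA per array was labelled. The deposited values are log2 levels that the authors summarised with RMA in Expression Console 1.1, per the submitters' processing notes. RMA corrects background and scales the arrays to each other, so a change in total RNA per cell is not seen. Array medians of the deposited values still differ, and both other normalizations moved the counts. The build and probe annotation were not given in the sources used here. Depth does not apply to arrays, whose number limits the precision.

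Of 35556 probe sets, 23410 are listed with a symbol in the platform annotation, 21789 with 1 symbol and 1621 with several, which were left out. The brightest probe set was kept for each of 999 genes with several, which gave 19938 genes. Group and experiment came from the sample titles. limma 3.58.1 in R 4.3.3 fitted a mean per group and the experiment number as a block over all 14 arrays, with two-sided moderated tests and Benjamini-Hochberg adjustment over all genes, called at an adjusted p under 0.05. The same steps were tested on simulated data. Arrays of the same experiment number deviated together, with correlations of 0.124 to 0.631 over the 21 pairs of groups. This shows a shift shared by the arrays of a number, and its source was not tested. Whether the experiments used separate cultures is stated only as independent experiments.

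The genes named are the 15 largest rises and falls that passed with the same sign in each experiment and a mean in the higher group above the median of all values, without predicted genes, variable segments, small RNAs and histone genes. Added to these are the 5 largest differences of effects in each direction, Ikzf1, Bcl2, list members that passed and the defining members of a list. The comparison, the gene lists and the rules were chosen with earlier results of these data known. Alternatives were no replicate block, other arrays in the fit, 2 other normalizations, a filter on dim genes, the mean of probe sets, another estimate of the spread, and each array left out in turn. Promoter windows are those of RefSeq, GRCm38.p6.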

Additional observations from a re-analysis of the deposited data

Results flagged for a closer look

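Genes named above whose 4OHT effect at 24 h differed between the cultures without and with IL-7 are given here with that difference, on the log2 scale, as the effect without IL-7 minus the effect with it. Each passed limma's test of the difference itself at an adjusted p under 0.05 over all genes, and each rests on 8 arrays. Of the 53 genes, 22 passed in all 15 alternatives and 29 did not pass without the replicate block. The difference passed in 5 to 8 of the 15 for Bcl2l11, Bcl6, Cdk6, E2f3, Gbp4, Mcm6, Nr4a1, Pcna, Pgk1, Phgdh, Pou2f2, Slc16a1, Slc7a5, Spn, Spred2, Tubd1 and Vpreb2. A negative value on a gene that fell means that it fell more without IL-7.

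The growth genes Myc (-2.47), Srm (-2.37), Dctd (-2.16), Polr1b (-1.48), Gnl3 (-1.02) and Odc1 (-0.97) fell more without IL-7, and so did the cell cycle and replication genes Ccnd2 (-1.28), Ccnd1 (-0.93), Pole2 (-1.21), Rfc5 (-0.80), Mcm6 (-0.72), Pcna (-0.40), Cdk6 (-0.41) and E2f3 (-0.62). Among genes of metabolism and protein folding the values were negative for Hsph1 (-1.07), Fads2 (-1.05), Slc7a5 (-0.97), Phgdh (-0.97), Hspd1 (-0.90) and Pgk1 (-0.63). Of the largest falls, Il33 (-1.86), Nrp2 (-1.66), Nlrp3 (-1.43), Gbp11 (-1.35), Ptger4 (-1.21), Tnfsf10 (-1.03), Tbx19 (-0.94), Myom1 (-0.71) and Nr4a1 (-0.68) fell in both cultures and more without IL-7. The other guanylate-binding proteins were Gbp4 (-1.26) and Gbp8 (-1.12), the inhibitors of ERK signalling Spred2 (-0.99) and Spry2 (-0.68), and the adhesion gene Ctnnd1 (-0.54). B lineage genes with negative values were Vpreb1 (-0.75), Vpreb2 (-0.48), Vav3 (-0.92), Spn (-0.55) and Bcl6 (-0.44).

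A negative value marked a smaller effect without IL-7 in Cxcr5 (-1.47, from 0.50 without and 1.97 with IL-7). The brightest probe set of Igkv19-93 showed the same (-0.51, from 0.83 and 1.34). That of Igkv19-93 passed in 9 of the 15 alternatives, and its sign reversed over the mean of its probe sets. Larger rises without IL-7 gave the positive values of Nuggc (1.23), E2f2 (0.89), Tubd1 (0.72), Ralgps2 (0.64), Rasgrp2 (0.61), Slc16a1 (0.55), Pou2f2 (0.54) and Bcl2l11 (0.43). The effects of Adgrg1 and Cd248 had opposite signs in the 2 cultures, with differences of 1.24 and 1.12. Tfrc (1.14) and Cenpq (1.13) were higher with 4OHT without IL-7 and did not pass with it, at -0.13 and -0.04.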

How the results depend on the processing

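The 4470 genes called without IL-7, 2184 higher and 2286 lower, became 3045 without the replicate block (1416 higher) and 3103 to 3384 when single arrays were left out (1274 to 1751 higher, 1542 to 1961 lower). With IL-7, the 3324 calls (1813 higher, 1511 lower) became 1826 without the block (1041 higher, 785 lower) and 1479 to 2774 with single arrays left out (824 to 1609 higher, 655 to 1198 lower). The 449 differences of effects (82 positive, 367 negative) became 137 without the block (14 and 123) and 201 to 325 with single arrays left out (35 to 55 positive, 162 to 274 negative). A filter on dim genes and the other normalizations, probe set, spread and array choices kept these counts within 1.5 times of the main ones.

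Of 368 named or listed genes that passed, 253 passed in all alternatives run. Without the replicate block 77 did not, with centred arrays 21, and with single arrays left out 61 to 77. The sign of Hk1 reversed from 0.04 to -0.35 over the mean of its probe sets, and the difference of effects of Igkv19-93 from -0.51 to 0.14. Both have a dimmer second probe set with another difference. With 2 arrays per group, levels near the bottom of the scale limit what could be called.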
